A study of Mus musculus with 6 samples.

Results

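The genes described here are 9 genes that mark the projection neurons of the striatum or act in them: the nuclear receptors Rxrg and Rarb, the transcription factor Foxp2, the receptors Drd2 and Adora2a, the signalling regulators Rgs9 and Ppp1r1b, and the neuropeptide precursors Tac1 and Penk. They were found in the deposited expression table as rows whose annotation named 1 gene only, that gene being one of the 9. This gave 8 genes with 1 row each, among 21789 rows that named a single gene and 28856 rows in all. No row of that kind was found for Adora2a, the adenosine receptor of the indirect pathway, which was not analysed here. The study took the brain, from olfactory bulb to brain stem, of embryonic day 16.5 mice and compared 3 wild-type embryos (Tdp2+/+) with 3 embryos of the genotype Tdp2Δ1-3, which lack exons 1 to 3 of Tdp2, the gene for a phosphodiesterase that frees DNA ends from trapped topoisomerase. Each brain was hybridised to its own Affymetrix Mouse Gene 1.0 ST array. The labels gave no treatment, sex, litter or strain, and the titles called the samples biological replicates.

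Striatal projection neurons, also called medium spiny neurons, are GABAergic cells that receive cortical glutamate and midbrain dopamine. In the adult, cells of the direct pathway carry the dopamine receptor Drd1 and make substance P from Tac1 and dynorphin from Pdyn, while cells of the indirect pathway carry Drd2 and Adora2a and make enkephalin from Penk. Retinoic acid made in and around the developing striatum acts through dimers of a retinoic acid receptor (RAR) and a retinoid X receptor (RXR), and Rarb and Rxrg are the members of these families that the striatum expresses strongly. None of the 9 genes is exclusive to the striatum: Foxp2 is also made in cortex, thalamus and cerebellum, and Tac1 and Penk in hypothalamus and brain stem, so that whole-brain RNA holds transcripts from all of these.

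RAR and RXR dimers bind pairs of a 6-base half-site, searched here on both strands in 4 spellings, of which AGGTCA and AGTTCA begin with A and the spellings GGGTCA and GGTTCA begin with G. The RefSeq promoter table (build GRCm38.p6) held 6 promoters of 5 of the genes, and the 4 below are shown because they contain at least 1 half-site and belong to genes that fell in the mutant brains. Each is the 250 bases before the transcription start, written 5′ to 3′ on the gene's strand, with half-sites in capitals (TGACCC is a half-site of the opposite strand).
Rarb, chr14:16575477-16575726, minus strand: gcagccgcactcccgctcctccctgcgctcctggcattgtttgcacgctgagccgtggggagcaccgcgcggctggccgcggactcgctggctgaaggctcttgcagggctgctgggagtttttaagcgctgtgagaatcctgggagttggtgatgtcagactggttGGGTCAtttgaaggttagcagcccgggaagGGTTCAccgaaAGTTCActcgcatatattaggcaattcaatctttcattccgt
Rxrg, first start, chr1:167598112-167598361, plus strand: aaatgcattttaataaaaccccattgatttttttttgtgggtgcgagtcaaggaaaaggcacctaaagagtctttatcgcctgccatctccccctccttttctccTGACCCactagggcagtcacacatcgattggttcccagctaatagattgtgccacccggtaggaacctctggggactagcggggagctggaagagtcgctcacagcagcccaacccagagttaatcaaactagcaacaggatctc
Rxrg, second start, chr1:167618015-167618264, plus strand: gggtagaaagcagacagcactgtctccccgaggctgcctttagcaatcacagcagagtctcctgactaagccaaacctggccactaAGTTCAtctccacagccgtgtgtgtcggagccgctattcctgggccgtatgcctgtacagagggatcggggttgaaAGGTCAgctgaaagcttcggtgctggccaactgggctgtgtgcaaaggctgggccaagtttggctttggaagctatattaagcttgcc
Drd2, chr9:49340153-49340402, plus strand: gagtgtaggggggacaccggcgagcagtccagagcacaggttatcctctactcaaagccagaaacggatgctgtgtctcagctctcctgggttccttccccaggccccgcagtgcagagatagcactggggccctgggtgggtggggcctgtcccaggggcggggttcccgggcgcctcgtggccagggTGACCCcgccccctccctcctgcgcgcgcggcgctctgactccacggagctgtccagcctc

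The Rarb promoter held 3 half-sites, beginning 83, 53 and 42 bases before the start. The last 2 lay in tandem with 5 bases between them, as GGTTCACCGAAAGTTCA, which is the arrangement known as the retinoic acid response element of this gene. Over windows from 250 bases before to 50 after the start, such a direct repeat with spacer 5 was found in 0.0974% of 32851 promoters on either strand. A single half-site is common and was found in 43.7% of them. The second Rxrg start had 2 half-sites, at 164 and 88 bases before it, and the first Rxrg start and Drd2 had 1 each, at 145 and 61 bases. None was found in the windows of Tac1 and Rgs9. The letters TATAAA occurred in Rgs9 and in 13.6% of all windows, and GGGCGG in Drd2, Tac1 and Rgs9 and in 35.7% of all windows, again on either strand. GC content ran from 53.7% at the first Rxrg start to 70.3% at Drd2, against a median of 52.7%.

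The values are log2 intensities, and each row has a median of 0 over the 6 arrays, a centring that the sources do not describe. A value of 0 is therefore a gene's own median over the 6 brains. Absolute levels are lost, and only differences between brains can be given, so the presence of striatal or brain markers as such could not be checked. When the 2 genotypes separate completely, centring also makes the nearest wild-type and mutant values mirror each other around 0. Tdp2 itself was lower in each of the 3 mutant brains than in any wild-type brain, with a difference of -2.07 ± 0.10 on the log2 scale (SE, n = 3 per genotype; limma adjusted p = 0.00035). Markers of other cell types moved as well: 11 of 11 measured cycling-cell genes were higher (median difference 0.56), and 4 of 12 pan-neuronal genes (Snap25, Syt1, Syp and Gap43) were lower (median -0.24). Of 9 interneuron genes, Npy, Calb2 and Gad1 were lower, and of 8 cortical glutamatergic genes Fezf2 and Sox5 were higher. In other cell types, 3 of 7 astrocyte and 2 of 5 oligodendrocyte genes were lower, and 2 of 8 radial glia genes were higher. Only Cldn5 of 6 endothelial genes and only Calb1 of 8 genes on the Purkinje list were lower. The Purkinje list as a whole had 5 negative and 3 positive differences, with a median of -0.025. None of 6 microglial or 5 choroid plexus genes passed, adjusted or unadjusted. Of 6 red-cell genes, Hbb-y and Hba-x, which encode globins of the embryo, were higher, by 3.79 and 1.44 on the log2 scale. Of 9 hypothalamic genes Gal was lower (-0.29), and Sim1 and Nkx2-1 were higher (0.39 and 0.25). At an adjusted p under 0.05 in limma, as for these counts, 4.13% of all rows were lower and 2.34% higher. The part of these cell types in the results below was not tested. Some arrays stood apart on other genes. The X-inactivation transcript Xist was at 6.27 in mutant 3 and 1.17 in mutant 2, against -0.09 to 0.0016 in the others, and the Y-linked Eif2s3y, Uty and Kdm5d were at -4.32, -3.30 and -2.84 in mutant 3 alone. By these genes mutant 3 differed in sex from the 3 wild-type brains, so sex was not balanced between the genotypes. The part of sex in the results was not tested. Results are therefore also given without mutant 3.

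Rxrg, Tac1, Rgs9, Drd2 and Rarb were lower in the mutant brains, which makes 5 of the 8 measured genes, and none was higher. Rxrg showed a 1.72-fold difference, and the other four differed 1.24-fold to 1.31-fold. Penk had the lowest mutant mean but differed so much among the 3 mutant brains that it did not pass the test, and Ppp1r1b and Foxp2 did not pass either. Passing means an adjusted p under 0.05 in limma's moderated test over 23410 rows that name a gene, of which 4.13% passed as lower and 2.34% as higher. Before adjustment 6 of the 8 had p under 0.05 as lower and 0 as higher, against 11.8% and 10% of all rows. All 3 mutant values lay below all 3 wild-type values in 5 of the 8 genes, against 12.6% of all rows, while 13.1% of rows separated the other way and 0 of the 8 did. With a 1.5-fold limit added, as in the series' own criteria, 1 of the 8 remained, Rxrg, against 0.453% of all rows. The median difference of the 8 was -0.32, and that of all rows was 0.013. These genes, and the related gene lists, were chosen with earlier results of these data known. Their counts can exceed the shares of all rows through that choice alone, so the shares give no test of enrichment. In RNA from a whole brain, fewer cells of a type and less RNA per cell cannot be told apart.

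**Figure D1:**
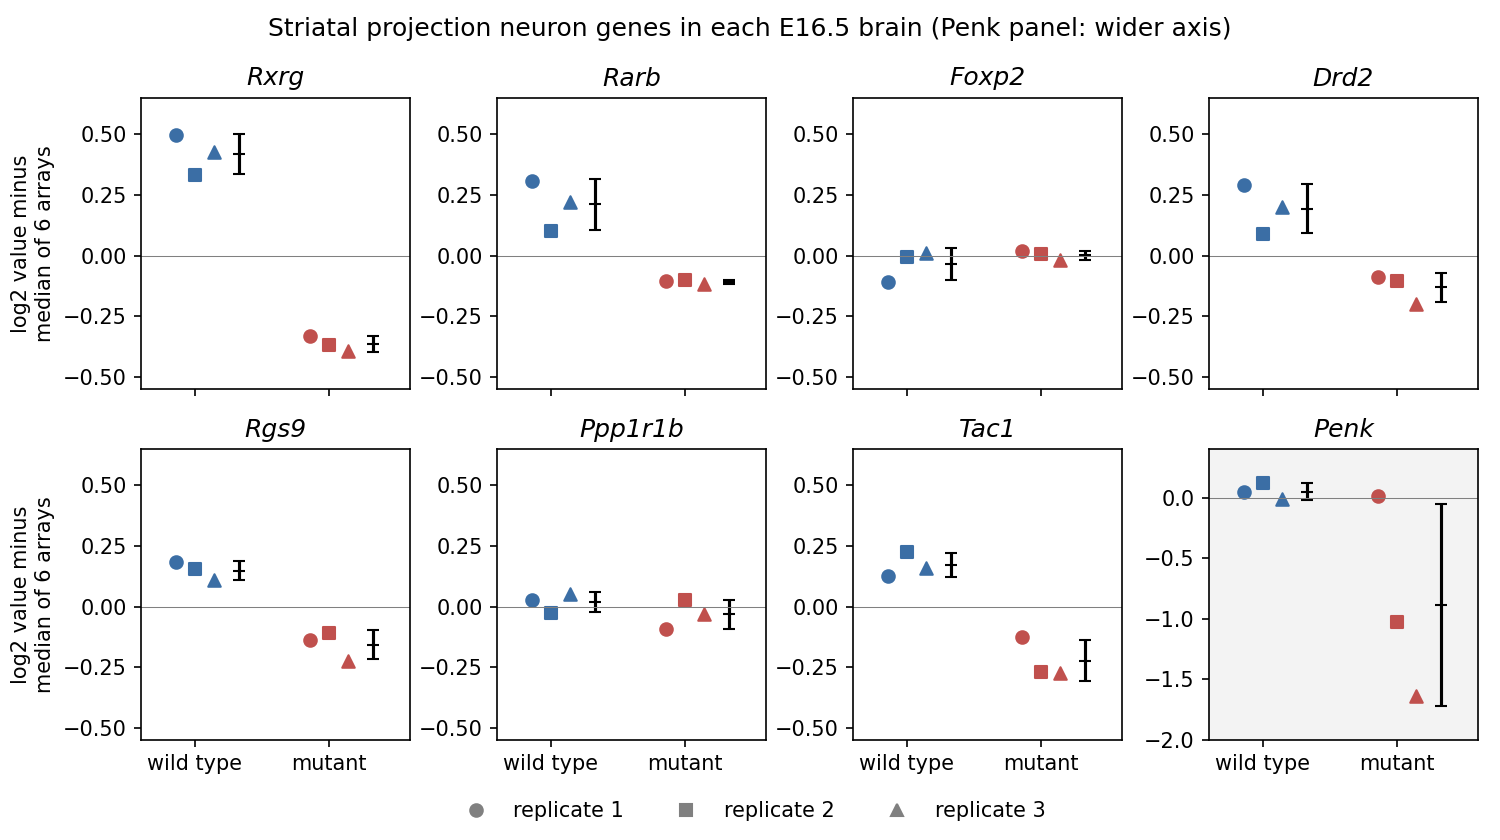
Centred log2 values of the 8 measured striatal genes in each of the 3 wild-type and 3 mutant brains (points), with the mean and SD of each genotype (n = 3) as a bar beside them; the shaded Penk panel has a wider axis. Rxrg, Tac1, Rgs9, Drd2 and Rarb separate the genotypes, and for Penk mutant 1 (0.01) lies inside the wild-type range of -0.01 to 0.12.

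Among the nuclear receptors, Rxrg, the RXR subtype most restricted to striatum and a few other sites, was at 0.50, 0.33 and 0.43 in the wild-type brains. In the mutant brains it was at -0.33, -0.37 and -0.40. The mutant brains were tightly grouped and all below the wild-type brains, and the distance between the genotypes was many times the spread within either. The difference was -0.78 ± 0.05 (SE, n = 3 per genotype; 95% confidence interval -0.91 to -0.66; limma adjusted p = 0.0013), and 0.115% of rows were lower. Rarb, the RAR subtype that pairs with it in these neurons, was at 0.31, 0.10 and 0.22 in the wild-type and -0.10, -0.10 and -0.12 in the mutant brains. Its mutant values were nearly equal, and wild-type 2 was the lowest of the wild-type values. The difference was -0.32 ± 0.06 (interval -0.45 to -0.19; limma adjusted p = 0.020).

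The other receptors of both families did not pass the test. Rara differed by -0.13 (adjusted p = 0.28), Rarg by -0.0066, Rxra by 0.0065 and Rxrb by -0.04. Whether Rxrg and Rarb differed more than their relatives was tested on the difference between the genes in each brain, with an exact two-sided permutation test over 3 against 3 brains, in which 0.1 is the smallest p possible. The difference of Rxrg less that of Rxra was -0.79 ± 0.11 (SE), and less that of Rxrb -0.74 ± 0.10, both with no overlap of genotypes (exact p = 0.1 each, 0.15 adjusted over 9 gene pairs). For Rarb it was -0.31 ± 0.04 against Rarg with no overlap (exact p = 0.1, adjusted 0.15) and -0.19 ± 0.08 against Rara with overlap (exact p = 0.2, adjusted 0.225). The design cannot reach 0.05 in such a test, and the pairs were chosen after the values were known.

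Of 17 measured genes of retinoid synthesis, transport, breakdown and signalling besides the members, 1 was lower and 0 were higher (2 and 0 before adjustment), with a median of -0.03. These counts were near the shares of all rows, of which 4.13% passed as lower and 11.8% were lower at an unadjusted p under 0.05. The gene that fell was Aldh1a1, a retinaldehyde dehydrogenase that makes retinoic acid and that midbrain dopamine neurons also express. It was at 0.36, 0.09 and 0.28 in the wild-type and -0.28, -0.09 and -0.12 in the mutant brains, a difference of -0.40 ± 0.08 (limma adjusted p = 0.028). Of 9 genes of dopamine neurons, only the dopamine transporter Slc6a3 was lower (-0.17, adjusted p = 0.046), with a list median of -0.016, and it passed in 0 of the 6 fits with a brain left out (adjusted p 0.073 to 0.15). Slc18a2 of the same list differed the other way, by 0.21 with no overlap of genotypes, and just missed passing (limma adjusted p = 0.053). Aldh1a2, the enzyme of meninges and early embryo, had values of -0.02, -0.52 and -0.35 in the mutant brains, and its difference of -0.34 did not pass (adjusted p = 0.115). It passed without mutant 1 (-0.48, limma adjusted p = 0.0064), where 7% of all rows passed as lower. Aldh1a2 also passed with array weights (-0.46, limma adjusted p = 0.0065), where 11.9% of all rows did, and cyclic loess turned its difference to 0.16. Of 6 meningeal markers Ogn and Slc6a13 were lower. The per-brain medians of all 6 were -0.22 and -0.10 in mutants 2 and 3 and 0.07 in mutant 1. Ogn itself was low in mutant 1 as well, at -0.31, against -0.40 and -0.18 in mutants 2 and 3. The part of the meningeal markers in the Aldh1a2 value was not tested. The Aldh1a1 call was lost without wild-type 1, wild-type 3, mutant 2 or mutant 3, with an adjusted p of at most 0.086.

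Foxp2, a forkhead factor of striatal and other neurons, was at -0.11, -0.01 and 0.01 in the wild-type and 0.02, 0.01 and -0.02 in the mutant brains. The genotypes overlapped, and wild-type 1 alone lay away from the rest. The difference was 0.04 ± 0.05, and the interval of -0.07 to 0.15 leaves room for small changes either way (limma adjusted p = 0.73). Foxp1, its relative in the same neurons, fell by 0.27 ± 0.05 on the log2 scale (adjusted p = 0.020), and Foxp1 less Foxp2 gave -0.31 ± 0.07 with no overlap between genotypes (exact permutation p = 0.1, adjusted 0.15).

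Among 19 measured transcription factors of striatal precursors and neurons, 2 were lower and 1 higher, and the median was 0.04. Over all rows 4.13% passed as lower and 2.34% as higher. Foxp1 and Ikzf1, a zinc-finger factor of striatal neurons, were lower (Ikzf1 by -0.26 ± 0.06, adjusted p = 0.033). Gsx2, which specifies the striatal progenitors of the lateral ganglionic eminence, was higher by 0.23 ± 0.05 (adjusted p = 0.034). Isl1, a factor of direct-pathway neurons, was 0.18 higher without passing (adjusted p = 0.069). Foxp1 and Ikzf1 passed without mutant 1 (adjusted p = 0.029 and 0.040) but not with any other single brain left out. Gsx2 passed in 0 of the 6 fits with a brain left out (adjusted p 0.054 to 0.14).

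Drd2, the inhibitory dopamine receptor of the indirect pathway, was at 0.29, 0.09 and 0.20 in the wild-type and -0.09, -0.10 and -0.20 in the mutant brains. The genotypes did not overlap, although wild-type 2 and mutant 1 were close. The difference was -0.32 ± 0.06 (interval -0.47 to -0.18; limma adjusted p = 0.024). Drd1, the stimulatory receptor of the direct pathway, was at 0.17, -0.03 and -0.01 in the wild-type and 0.01, 0.09 and -0.02 in the mutant brains. These overlapped, and the difference was -0.02 ± 0.06 (interval -0.17 to 0.13; adjusted p = 0.92). The difference of Drd2 less that of Drd1, taken within each brain, was -0.31 ± 0.04 with no overlap (exact permutation p = 0.1, adjusted 0.15). Of the other dopamine receptors, Drd5 differed by -0.06 and Drd4 by 0.03, and with Drd3 none of 3 passed in limma, adjusted or at an unadjusted p under 0.05. Drd2 is also made in dopamine neurons and pituitary; 0 of 6 pituitary genes and 1 of 9 dopamine-neuron genes passed. The pituitary median was 0.15 in wild-type 1, against -0.13 to 0.03 in the other brains, with Gh at 1.57 and Cga at 0.55 there. Wild-type 1 was also the highest brain for Drd2, which did not pass without it (adjusted p = 0.057). That loss was not particular to wild-type 1. Drd2 also did not pass without wild-type 3, mutant 2 or mutant 3 (limma adjusted p at most 0.096). The part of these cells in the Drd2 value was not tested.

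Rgs9, the GTPase-activating protein that shortens signalling downstream of Drd2, was at 0.18, 0.16 and 0.11 in the wild-type brains and at -0.14, -0.11 and -0.22 in the mutant brains. The values within each genotype lay close together and the groups were well apart. The difference was -0.31 ± 0.05 (interval -0.42 to -0.19; limma adjusted p = 0.013). Ppp1r1b, which encodes DARPP-32, the protein phosphatase 1 inhibitor that integrates dopamine and glutamate signals, was at 0.03, -0.03 and 0.05 in the wild-type and -0.09, 0.03 and -0.03 in the mutant brains. The groups overlapped, and the difference was -0.05 ± 0.05 (interval -0.16 to 0.06; adjusted p = 0.63). Rgs9 less Ppp1r1b gave -0.26 ± 0.06 with no overlap (exact permutation p = 0.1, adjusted 0.15).

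Of 17 measured partners of these proteins in the protein kinase A, protein phosphatase 1 and RGS pathways, 5 were lower and none higher. Over all rows 4.13% passed as lower and 2.34% as higher. The median of the 17 genes was -0.19. Those that fell were Rgs6 and Rgs7, which belong to the same RGS subfamily as Rgs9, the protein kinase A regulatory subunits Prkar1b and Prkar2b, and the calcineurin catalytic subunit Ppp3ca. Their differences ran from -0.51 for Prkar1b to -0.25 for Ppp3ca. Rgs7 differed by -0.34, and Rgs9 less Rgs7 gave 0.03 ± 0.07 with overlap (exact permutation p = 0.8, adjusted 0.8). This list is broadly neuronal. Its per-brain median was lowest in mutants 2 and 3 (-0.13 and -0.19, against 0.0023 in mutant 1), as was the pan-neuronal median (-0.15 and -0.28, against -0.02), and the part of one in the other was not tested. None of the 5 passed without wild-type 2, mutant 2 or mutant 3, 2 passed without wild-type 1 or wild-type 3, and 10 of the 17 passed without mutant 1. The share of all rows that passed as lower moved too. It was 0.927%, 0.483% and 1.7% without wild-type 2, mutant 2 and mutant 3. Without wild-type 1 and wild-type 3 it was 1.95% and 3.15%, and without mutant 1 it was 7%.

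Of 23 other measured genes enriched in striatal projection neurons, mostly for cyclic nucleotide, calcium and channel signalling, 9 were lower and none higher (15 and 0 before adjustment), and the median was -0.23. Over all rows 4.13% passed as lower and 2.34% as higher, and 11.8% were lower at an unadjusted p under 0.05. Gucy1a1, a subunit of the soluble guanylate cyclase that answers nitric oxide, was at 0.40, 0.30 and 0.39 in the wild-type and -0.39, -0.36 and -0.30 in the mutant brains. Its difference of -0.71 ± 0.05 was close in size to that of Rxrg (limma adjusted p = 0.0013). Gnal, the G protein α subunit that couples Drd1 and Adora2a to adenylyl cyclase, fell by 0.62 ± 0.08 on the log2 scale (adjusted p = 0.0090), as did its partner Gng7 by 0.47 and the cyclase Adcy5 by 0.36. Rasgrp2, a calcium-regulated Ras-family exchange factor, differed by -0.64, Kcnip2, a potassium channel subunit, by -0.56, and Arpp21, a substrate of protein kinase A, by -0.48. The phosphodiesterases Pde7b and Pde10a differed by -0.35 and -0.22. Outside the genes that passed, Gpr6, an orphan receptor of the indirect pathway, differed by -0.17 (adjusted p = 0.27). The medians of pan-neuronal, interneuron, astrocyte and oligodendrocyte genes were near that of this list, at -0.24, -0.20, -0.28 and -0.29. Dopamine-neuron, Purkinje and hypothalamic medians were -0.016, -0.025 and -0.0085, and radial glia and cortical glutamatergic medians were 0.13 and 0.17. Without mutant 2 only 2 of the 23 passed, where 0.483% of all rows passed as lower. Without the other arrays in turn 6 to 10 did, where 0.927% to 7% of all rows passed as lower. Pde10a passed in 0 and Adcy5 in 1 of the 6 fits with a brain left out. With the 1.5-fold limit 3 of the 23 passed, against 0.453% of all rows as lower.

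**Figure D2:**
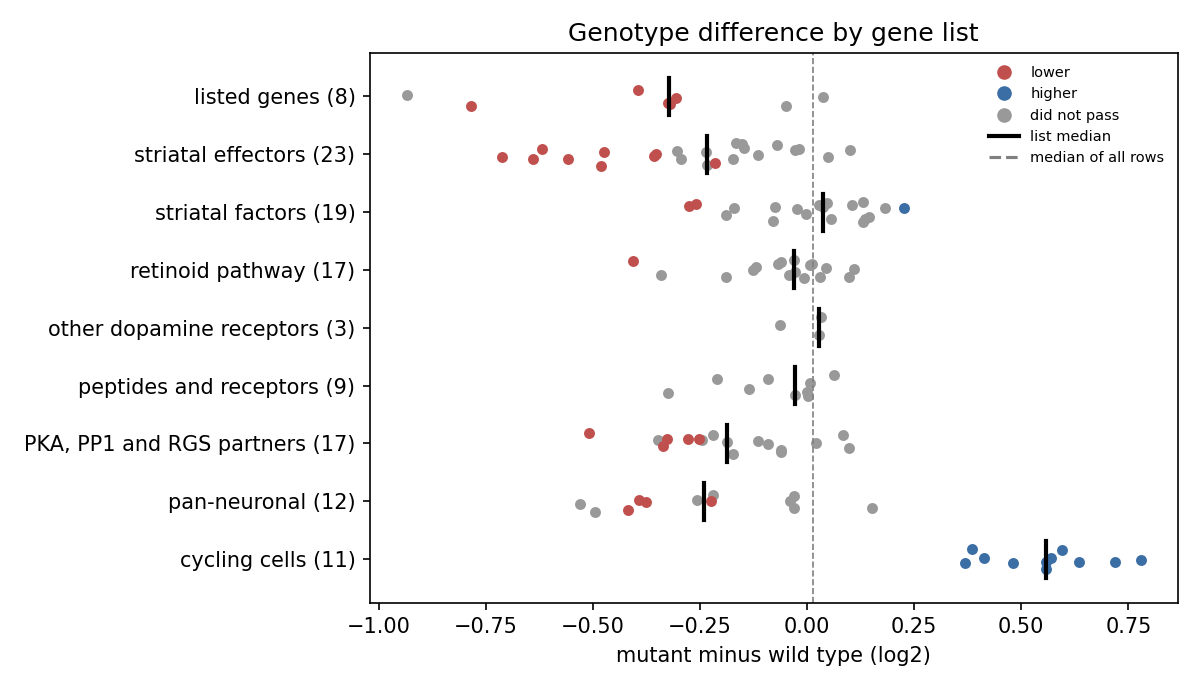
Differences (mutant minus wild type, log2) of single genes in each gene list, coloured red (lower) or blue (higher) where adjusted p is under 0.05 and grey otherwise; black bars are list medians, the dashed line the median of all rows, and numbers in brackets the genes measured. The striatal effector genes lie mostly below 0 with a median of -0.23, and so do the pan-neuronal genes with a median of -0.24. Striatal transcription factors centre on 0.04, and cycling-cell genes all lie above 0.

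Tac1, the precursor of substance P and neurokinin A, was at 0.13, 0.23 and 0.16 in the wild-type brains and at -0.13, -0.27 and -0.27 in the mutant brains. All mutant values were below all wild-type values, with mutant 1 the nearest. The difference was -0.39 ± 0.06 (interval -0.52 to -0.27; limma adjusted p = 0.010). Pdyn, the dynorphin precursor of the same direct-pathway cells, had wild-type values of 0.19, -0.05 and 0.05 and mutant values of 0.11, -0.13 and -0.30. Those overlapped, and the difference of -0.17 did not pass (adjusted p = 0.41). It was -0.28 without mutant 1, -0.11 without wild-type 1 and -0.08 without mutant 3, and passed in none of the fits with a brain left out (adjusted p at least 0.084). Tac1 less Pdyn gave -0.22 ± 0.13, with overlap (exact permutation p = 0.2, adjusted 0.225).

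Penk, the enkephalin precursor of the indirect pathway, was at 0.04, 0.12 and -0.01 in the wild-type brains. It was at 0.01, -1.03 and -1.64 in the mutant brains. Mutant 1 lay inside the wild-type range, while mutants 2 and 3 were far below it, so that mutant 1 was 2.06-fold above mutant 2 and 3.14-fold above mutant 3. The mean difference was -0.93 ± 0.35 (interval -1.73 to -0.14), and the adjusted p from limma was 0.16. Without mutant 1 the difference was -1.38 and passed (adjusted p = 0.0054), and without mutant 3 it was -0.56 (adjusted p = 0.35). With array weights, fitted from these same values, it was -1.10 and passed (limma adjusted p = 0.010). The weights were 3.65 for wild-type 2 and 2.25 for mutant 2, against 0.44 to 0.75 for the others, with mutant 1 at 0.52. In that fit 11.9% of all rows passed as lower and 11.3% as higher. Cyclic loess on the centred values turned the Penk difference to 0.61 (limma adjusted p = 0.075). The SD of Penk was 0.07 in the wild-type and 0.83 in the mutant brains, where the median row had 0.061.

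Only 8 of 23410 rows, Penk included, had a mutant SD as large as that of Penk. The others were Xist, Eif2s3y, Uty, Kdm5d, Hoxa5, Hoxb5 and Lamp5, a membrane protein of some neurons. Hoxa5 and Hoxb5, genes of hindbrain and spinal cord, separated mutant 1 from mutants 2 and 3 as Penk did, but also split the wild-type brains. Hoxa5 was at 1.08, 0.80 and -0.80 in the wild-type and 1.02, -1.05 and -0.95 in the mutant brains, and Hoxb5 at 1.03, 0.62 and -0.94 and at 1.20, -0.78 and -0.62. Over 14 Hox genes of paralogue groups 4 to 8, a list added after the values were seen, the median was 0.22, 0.03 and -0.19 in the wild-type and 0.24, -0.11 and -0.04 in the mutant brains. Wild-type 3, with Penk at -0.01, was the lowest brain by this median and for Hoxb5, while Hoxa5 was lowest in mutant 2. Of the 14 Hox genes only Hoxa7 passed, as higher (0.19, limma adjusted p = 0.044). The part of these differences in the Penk values was not tested.

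**Figure D3:**
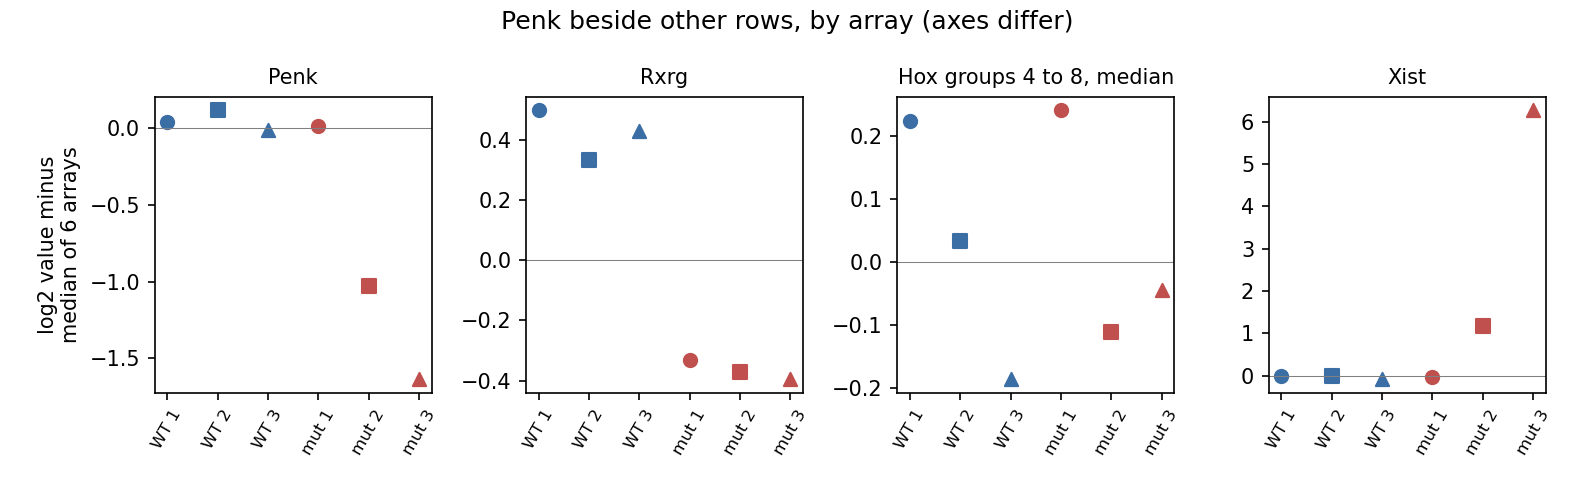
Values in each of the 6 brains of Penk, Rxrg, the median of 14 Hox genes and Xist (centred log2; each panel has its own axis; wild type blue, mutant red). Penk is low in mutants 2 and 3 (-1.03 and -1.64), Xist is high in the same 2 brains (1.17 and 6.27), and the Hox median is low in wild-type 3 as well (-0.19).

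Of 9 other genes for tachykinin and opioid peptides and their receptors, none passed in limma after adjustment, and 2 were lower at an unadjusted p under 0.05. These were Oprk1, the dynorphin receptor (-0.33, adjusted p = 0.063), and Tacr1, the substance P receptor (-0.21, adjusted p = 0.088). The median of the 9 was -0.03, and 11.8% of all rows were lower at an unadjusted p under 0.05.

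**Figure D4:**
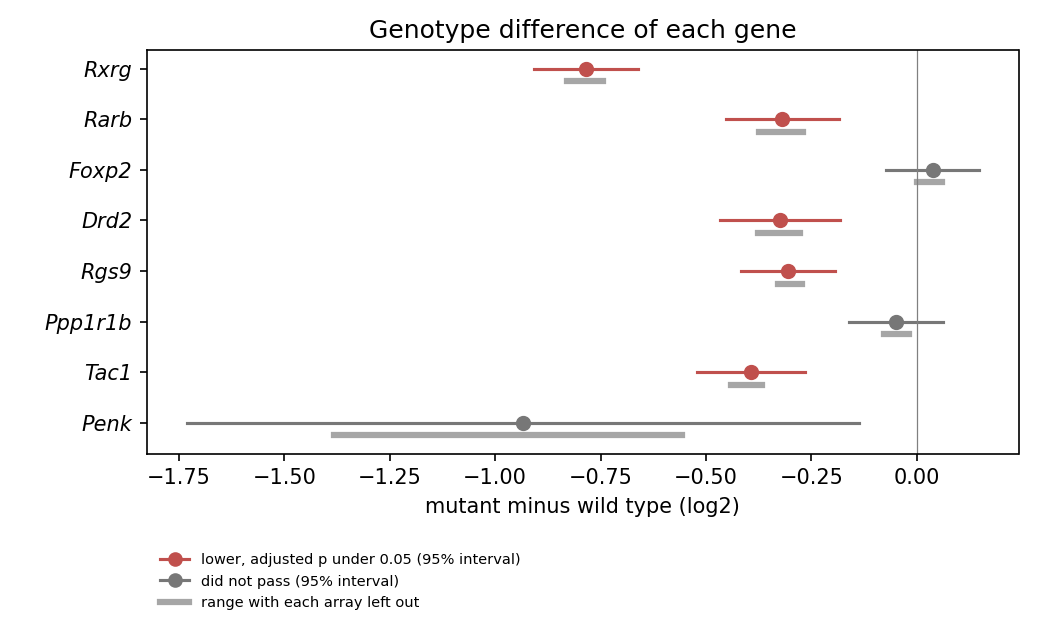
Mutant minus wild-type difference of each of the 8 measured striatal genes (log2), with 95% confidence intervals from limma (thin lines; red where adjusted p is under 0.05) and, as grey bars, the range with each array left out. The interval of Rxrg (-0.91 to -0.66) lies far below 0, that of Penk (-1.73 to -0.14) is the widest, and those of Ppp1r1b and Foxp2 include 0.

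The calls rested on individual brains to different degrees. Rxrg passed with each of the 6 brains left out (adjusted p 0.0026 to 0.019). Tac1 did not pass without wild-type 2 (adjusted p = 0.052) or mutant 2 (0.063), and Rgs9 without wild-type 2 (0.065) or mutant 2 (0.058). Drd2 did not pass without wild-type 1 (0.057), wild-type 3 (0.058), mutant 2 (0.096) or mutant 3 (0.081). Rarb did not pass without wild-type 3 (0.051), mutant 2 (0.094) or mutant 3 (0.068). Directions of these 5 genes held in all of these fits. Without mutant 3, the brain that stood apart on Xist and the Y-linked genes, 3 of the 8 genes passed: Rxrg at -0.77, Tac1 at -0.37 and Rgs9 at -0.27 (adjusted p = 0.0091, 0.040 and 0.046), while Drd2 and Rarb were at -0.29 and -0.31. Without mutant 2 only Rxrg passed, and without mutant 1 there were 6, Penk among them. The share of all rows that passed as lower moved the same way, to 0.483% without mutant 2, 1.7% without mutant 3 and 7% without mutant 1.

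The 5 genes that fell varied together over the 6 brains, with Pearson r from 0.85 (Rarb with Tac1) to 0.98 (Rarb with Drd2), which as a description includes the genotype difference they share. Penk correlated less closely with them, at 0.65 to 0.83. None of the 5 had mutant 1 inside the wild-type range, as Penk did. Mutant 1 was the nearest of the mutants to the wild-type brains for Rxrg, Tac1 and Drd2, and mutant 2 for Rgs9 and Rarb.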

How the data were processed

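Total RNA from 6 whole embryonic brains was labelled and hybridised to Affymetrix Mouse Gene 1.0 ST arrays, per the labels' protocols. The deposited values are log2 intensities that the authors made by RMA, per the series text, in Affymetrix Expression Console, per the submitters' processing notes (version not given in the sources used here). Each row's median over the arrays is 0 to within 5e-07, a centring that the sources do not describe. Scanner intensities and detection calls were not used here, so genes near background cannot be told from others. GEO's platform annotation named 1 gene for 21789 rows, several for 1621 and none for 5446.

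Groups were taken from the sample titles. The 2 genotypes were compared with limma 3.58.1 (lmFit and eBayes, two-sided) in R 4.3.3, with Benjamini-Hochberg adjustment over the 23410 rows that name a gene, without further normalization or filter; the script was tested on simulated data. Promoters came from a RefSeq table (GRCm38.p6), and figures were drawn with matplotlib 3.10.9. The alternatives were a replicate block, leaving out each array, equal array medians, cyclic loess, array weights, all rows, 1 row per gene, a robust variance prior, a per-row test without shared variance, and the 1.5-fold limit. The members and gene lists were chosen with earlier results of these data known. Named were all 9 members, in each related list the genes that passed (at most 6, by adjusted p, with a few close relatives) or the 2 smallest p-values where none passed, and the 5 genes most like the mean of the members and Rxrg; the Hox and sex-chromosome genes were chosen after their values were seen. The series text speaks of independent pairs, but the titles' numbers state no shared litter or batch, and the numbers were not taken as pairs. The limma p-values rest on the spread of these 6 embryos within genotypes, with each row's variance drawn toward that of all rows.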

Additional observations from a re-analysis of the deposited data

How the results depend on the processing

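Of the 8 measured genes, 5 passed as lower in the main analysis and 0 as higher. The count of 5 (4.13% of all rows passed as lower) became 1 to 6 with single arrays left out (0.483% to 7% of all rows) and 6 with array weights (11.9% of all rows, and 11.3% as higher). It was 0 in the per-row test without shared variance (where 5 were lower and 0 higher before adjustment, against 2124 and 1954 of 23410 rows, and 0 rows passed after it), and 1 with the 1.5-fold limit (0.453% of all rows). It was 5 in the other fits, including the replicate block. That block raised the calls over all rows from 967 lower and 548 higher to 1496 and 904. Deviations of same-numbered brains from their genotype means correlated at 0.21, 0.05 and 0.20, and mutant 2 correlated as well with wild-type 3 (0.06), so the numbers were not used as pairs. None of the 8 passed as higher in any of these fits. Cyclic loess, applied to centred values, turned the differences of Penk (0.61), Aldh1a2 (0.16), Rarg (0.0022) and Rxra (-0.0061). Array weights turned those of Ppp1r1b (0.0068), Drd1 (0.060) and Rarg (0.079), and no cause was tested. Cyclic loess adjusts values by intensity, and centred values hold no absolute intensity, so that setting cannot settle the direction of a difference. With single arrays left out, differences near 0 changed sign for 6 genes that did not pass: Foxp2 (-6e-04 to 0.060), Drd1 (-0.054 to 0.047), Drd4 (-0.003 to 0.074), Rarg (-0.059 to 0.032), Rxra (-0.066 to 0.11) and Rxrb (-0.15 to 0.048). Precision is limited by 3 arrays per genotype. Signal over background is unknown for these values.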

Other observations

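Over the 6 brains, the rows most like Rxrg were those of Cpne8, Tm6sf1, Bend6, Nkain2 and Klf6, with Pearson r of 0.997, 0.996, 0.995, 0.994 and 0.994. All vary between genotypes as Rxrg does, so such values are a description of shared genotype difference. Bend6, a transcription factor, differed by -0.69, the copine Cpne8 by -0.36, Nkain2, a protein that interacts with the sodium pump, by -0.45 and the zinc-finger factor Klf6 by -0.28, whereas Tm6sf1 differed by -0.10 and did not pass (limma adjusted p = 0.18).

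The rows most like the mean of the 8 genes, to which Penk contributes most of the spread among mutants, were Ufsp1, Zfp804a, Sh3d19, Mal2 and Frmd4a, with r from 0.998 to 0.999. Mal2, a membrane trafficking protein, was at 0.42, 0.34 and 0.40 in the wild-type and -0.34, -0.74 and -0.98 in the mutant brains. It was graded over the mutants in the same order as Penk, but mutant 1 was clear of the wild-type brains.

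The 10 nearest annotated neighbours of Penk on chromosome 4, 5 on each side, were all measured and none passed in limma. Their differences ran from -0.16 to 0.25, and the largest SD among the mutant brains was 0.14, against 0.83 for Penk.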
